A study of Mus musculus with 12 samples.

Results

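The Cyp2c genes encode a family of cytochrome P450 enzymes that lie next to each other on mouse chromosome 19. Measurements of 8 family members in mouse liver are described here, out of 10 listed gene symbols. Probe sets were assigned to members by annotated symbol, 1 probe set per symbol. The members were chosen with earlier results of these data known. The array's annotation held no probe set under the symbols Cyp2c29 or Cyp2c44, so these were not analysed here under those names. RefSeq gives Cyp2c44 as an older name of Cyp2c23, and the probe set of Cyp2c23 is described with the 5 other Cyp2c genes that were measured. Together 14 Cyp2c genes were measured, among 22206 probe sets and 19505 gene symbols.

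Liver RNA was profiled on 12 arrays, 1 adult male mouse per array. Arrays 7 to 12 held offspring of dams that lacked uncoupling protein 1 (UCP1-KO dams), and arrays 1 to 6 held offspring of wild-type (WT) dams. UCP1 is the mitochondrial protein through which brown fat makes heat. The series asks how thermogenesis in the mother's brown fat bears on metabolism in the sons, and liver expression is compared here by dam genotype. All mice were C57BL/6J, 4 to 5 months old, kept at 23 °C on a chow diet. All sires were heterozygous (HET), and the offspring of both groups are labelled HET for the UCP1 mutation. With this mating the parent that passed on the mutant allele differs between the groups, and this cannot be told apart from the dam's genotype. Which mice were littermates is not stated, and the p-values reflect only the spread among these 12 animals.

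CYP2C enzymes sit in the endoplasmic reticulum, take electrons from NADPH through cytochrome P450 reductase, and add oxygen to drugs and to fatty acids. Arachidonic and linoleic acid are among their substrates, and the products include epoxides and hydroxy acids that act as lipid signals. In liver the genes are hepatocyte genes, several are strongest near the central vein, and the receptors CAR and PXR and the factor HNF4 are known regulators. Some mouse members, among them Cyp2c39 and Cyp2c40, are known to be more abundant in female than in male liver. Cyp2c70 has a separate role in mice, where its enzyme makes muricholic acids, a hydrophilic class of bile acids.

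Promoter sequences are printed for 4 members, because these genes fall into different patterns in the values below. Cyp2c37 and Cyp2c50 were low on the same 3 arrays, Cyp2c40 was less low on those arrays and overlapped between the groups, and Cyp2c70 was not low on them. Each window runs from 250 bases before to 50 bases after the gene's start, 5′ to 3′ on the gene's strand, from RefSeq on the build GRCm38.p6. Cyp2c37 is shown for chr19:39992174-39992473 on the plus strand, Cyp2c50 for chr19:40089429-40089728 on the plus strand, Cyp2c40 for chr19:39812765-39813064 on the minus strand and Cyp2c70 for chr19:40187237-40187536 on the minus strand. Capitals mark matches to the 8 motifs that were searched.
Cyp2c37: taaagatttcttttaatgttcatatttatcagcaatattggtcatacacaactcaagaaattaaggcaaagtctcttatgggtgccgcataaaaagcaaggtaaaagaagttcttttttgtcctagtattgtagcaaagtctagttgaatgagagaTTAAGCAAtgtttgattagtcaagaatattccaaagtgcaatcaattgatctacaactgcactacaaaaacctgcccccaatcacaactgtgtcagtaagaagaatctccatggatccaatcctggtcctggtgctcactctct
Cyp2c50: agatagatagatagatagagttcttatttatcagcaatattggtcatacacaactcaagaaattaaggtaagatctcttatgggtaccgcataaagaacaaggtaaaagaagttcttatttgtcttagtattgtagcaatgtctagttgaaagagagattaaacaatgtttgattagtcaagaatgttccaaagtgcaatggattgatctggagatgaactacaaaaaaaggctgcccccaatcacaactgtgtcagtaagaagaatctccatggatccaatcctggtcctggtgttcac
Cyp2c40: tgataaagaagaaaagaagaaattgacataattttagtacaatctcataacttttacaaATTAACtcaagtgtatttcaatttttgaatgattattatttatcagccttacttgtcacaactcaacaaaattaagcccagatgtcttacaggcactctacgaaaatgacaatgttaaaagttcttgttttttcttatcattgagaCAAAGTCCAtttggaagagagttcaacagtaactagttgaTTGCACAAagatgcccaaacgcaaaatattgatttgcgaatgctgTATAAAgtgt
Cyp2c70: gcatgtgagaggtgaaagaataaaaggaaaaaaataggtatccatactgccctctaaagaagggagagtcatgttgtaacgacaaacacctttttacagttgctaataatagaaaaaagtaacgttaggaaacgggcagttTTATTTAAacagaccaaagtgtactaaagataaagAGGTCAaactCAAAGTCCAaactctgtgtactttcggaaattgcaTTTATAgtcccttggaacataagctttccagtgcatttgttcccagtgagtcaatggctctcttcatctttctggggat

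The motifs were searched on both strands, with N for any base, and no matches overlapped in the Cyp2c windows. Position -1 is the last base before the start. Cyp2c40 held the HNF4 letters CAAAGTCCA at -45 to -37, and Cyp2c70 held them at -64 to -56. The Cyp2c40 window also matched the HNF1 half-site GTTAAT at -191 to -186, as its reverse complement. It held the C/EBP letters TTGCNNAA at -5 to 3 and the TATA letters TATAAA at 41 to 46. In Cyp2c70 the nuclear receptor half-site AGGTCA lay at -74 to -69, the D-box letters TTANNTAA at -109 to -102 and the TATA letters, reversed, at -29 to -24. Cyp2c37 had a single match, to the C/EBP letters in reverse complement at -94 to -87, and the Cyp2c50 window matched none of the 8.

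RefSeq windows were available for 13 Cyp2c genes, including 7 of the 8 members but not Cyp2c54, and Cyp2c39 had 2 windows, which makes 14. The HNF4 letters were present in 6 of these 14 windows (Cyp2c65, Cyp2c67, Cyp2c68, Cyp2c40, Cyp2c69 and Cyp2c70) and in 0.475% of 32851 mouse promoters of the same length. TATAAA was in 10 of the 14 windows and in 13.6% of all promoters, AGGTCA in 3 and 16.3%, GTTAAT in 3 and 7.10%, and TTGCNNAA in 4 and 10.8%. The FOXA letters TGTTTAC were in 3 windows, those of Cyp2c39 and Cyp2c38, and in 3.65% of all promoters. TTANNTAA was in 4 windows and 6.00% of promoters, and the STAT letters TTCNNNGAA were in 0 of 14 and 8.30%. These genes are close copies, so their matches are not independent, and a match only describes the letters.

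Identity was counted over whole windows, so it also depends on where each gene's start is annotated. Cyp2c37 and Cyp2c50 were identical at 264 of 305 aligned columns, or 86.6%, whereas the Cyp2c37 and Cyp2c70 windows were 50.6% identical. Cyp2c68 and Cyp2c69 shared 91.1%, Cyp2c40 and Cyp2c69 80.9%, and Cyp2c39 and Cyp2c38 78.1%. The probe sequences were not used here. How far the probe sets of such close paralogs picked up each other's transcripts was not tested.

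All 8 members gave signals above the median negative control signal in both groups. Values are the deposited log2 signals, on which a step of 1 is a doubling. The median negative control signal was 5.96 to 6.36 on arrays of offspring of UCP1-KO dams and 6.14 to 6.62 on arrays of offspring of WT dams (means 6.21 ± 0.14 for UCP1-KO dams and 6.39 ± 0.21 for WT dams, n = 6 each, with SD; two-sided exact permutation test, p = 0.119). Over all probe sets, arrays 8, 10 and 11 stood apart on the first principal component, which carried 19.8% of the variance, with scores of 37.5, 26.4 and 34.2 against -24.1 to 1.71 on the other 9 arrays. Arrays 7, 9 and 12 scored -2.4, 1.7 and 0.6, against -21.8, 1.2, -24.1, -18.1, -20.7 and -14.4 on arrays 1 to 6. The mean scores were thus 16.3 ± 18.3 for UCP1-KO dams and -16.3 ± 9.2 for WT dams (SD, n = 6 each, two-sided exact permutation test, p = 0.00649). Arrays 8, 10 and 11 are all from offspring of UCP1-KO dams and are also the arrays on which Cyp2c37, Cyp2c54 and Cyp2c50 were lowest. Leaving them out was chosen after the data were seen. Values without them are given for the members, for the counts of each list and for the named genes that moved by more than 1.5 times. Defining hepatocyte genes were above the negative controls for 8 of 8 genes in both groups, as liver tissue requires, with array means of 18.49 to 18.68 in offspring of UCP1-KO dams (18.58 to 18.68 on arrays 8, 10 and 11) and 18.32 to 18.59 in offspring of WT dams.

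None of the 8 members passed the comparison by dam genotype, but 4 of them had lower mean signals in offspring of UCP1-KO dams by 0.47 to 1.02 log2. These were Cyp2c54, Cyp2c37, Cyp2c50 and Cyp2c70. In a limma fit of all probe sets, 0 of the 8 members had an adjusted p under 0.05, while 4 of 8 had an unadjusted p under 0.05 in the lower direction and 0 in the higher one. Over all 22206 probe sets, 0.0360% passed after adjustment (8 in all, 1 higher and 7 lower), 6.00% had an unadjusted p under 0.05 in the lower direction, and 7.08% had one in the higher direction. An unequal-variance test per probe set gave 0 members after adjustment and 2 with an unadjusted p under 0.05. All 8 member differences lay below 0, with a median of -0.43, against 43.2% of all probe sets below 0 and a median of 0.03. Without arrays 8, 10 and 11, 1 of the 8 members (Cyp2c70) had an unadjusted p under 0.05, 6 lay below 0 and the median was -0.07, against 45.1% of all probe sets below 0 and a median of 0.03. For 0 of the 8 did the groups of all 12 arrays separate without overlap, which 1.05% of all probe sets did. In these bulk samples, fewer cells of a type and less RNA per cell cannot be told apart.

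**Figure D1:**
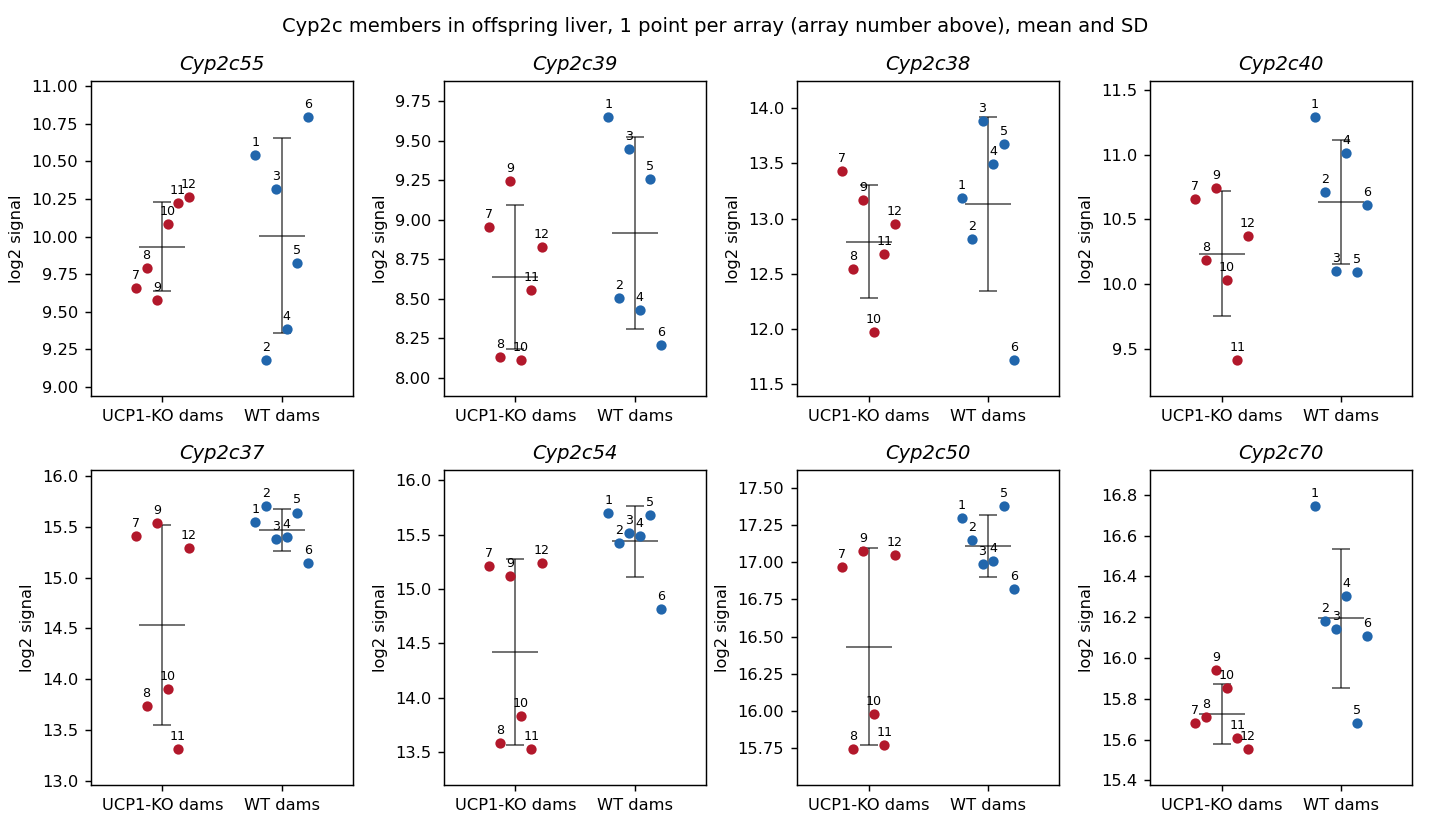
Log2 signals of the 8 Cyp2c members, 1 panel per gene, with offspring of UCP1-KO dams (red) left of offspring of WT dams (blue). Points are arrays, labelled with the array number, and bars are the mean ± SD (n = 6 each); for Cyp2c37, Cyp2c54 and Cyp2c50, arrays 8, 10 and 11 lie below all other arrays.

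Cyp2c37, Cyp2c54 and Cyp2c50 encode enzymes that act on arachidonic acid and related fatty acids, and Cyp2c37 and Cyp2c50 are known to be induced through CAR. Cyp2c37 signals were 15.41, 13.74, 15.53, 13.90, 13.32 and 15.29 on arrays 7 to 12 from offspring of UCP1-KO dams, against 15.55, 15.70, 15.38, 15.40, 15.64 and 15.15 on arrays 1 to 6 from offspring of WT dams. Arrays 8, 10 and 11 were more than 1 log2 below every other array, while arrays 7, 9 and 12 lay inside the range of offspring of WT dams. The means were 14.53 ± 0.98 for UCP1-KO dams and 15.47 ± 0.20 for WT dams (SD, n = 6 each), which differ by -0.94 log2 (95% interval -1.62 to -0.25, adjusted p = 0.227 by limma). This corresponds to 52.3% of the signal in offspring of WT dams.

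Cyp2c54 had signals of 15.22, 13.58, 15.12, 13.83, 13.53 and 15.24 on arrays 7 to 12 from offspring of UCP1-KO dams and 15.70, 15.43, 15.52, 15.49, 15.69 and 14.81 on arrays 1 to 6 from offspring of WT dams. The same 3 arrays were lowest. The other 3 from offspring of UCP1-KO dams lay below 5 of the 6 from offspring of WT dams, whose own lowest was array 6. The log2 difference was -1.02 (95% interval -1.65 to -0.39, limma adjusted p = 0.165), and the mean signal was 49.4% of that in offspring of WT dams. Cyp2c54 had the smallest p of the 8 members, at rank 425 of all probe sets.

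Cyp2c50 lies directly beside Cyp2c54 in the RefSeq gene order. Its signals were 16.97, 15.75, 17.08, 15.98, 15.77 and 17.05 in offspring of UCP1-KO dams (arrays 7 to 12) and 17.30, 17.15, 16.99, 17.01, 17.38 and 16.82 in offspring of WT dams (arrays 1 to 6). Arrays 8, 10 and 11 again lay below all others and the remaining arrays overlapped. The log2 difference was -0.67 (95% interval -1.17 to -0.18, limma adjusted p = 0.232), or 62.7% of the signal in offspring of WT dams.

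In the fit without arrays 8, 10 and 11, the log2 differences of these genes were -0.06 for Cyp2c37, -0.25 for Cyp2c54 and -0.08 for Cyp2c50, with limma adjusted p-values of 0.945, 0.754 and 0.926. The differences of this trio thus rested largely on 3 of the 6 offspring of UCP1-KO dams. The negative control medians of the 3 arrays, 6.25, 6.36 and 6.15, lay inside the range of the other 9. What set these arrays apart was not tested.

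Cyp2c70, whose enzyme makes muricholic acids in mice, followed another pattern. Its signals were 15.68, 15.71, 15.94, 15.86, 15.61 and 15.56 in offspring of UCP1-KO dams (arrays 7 to 12), against 16.75, 16.18, 16.14, 16.30, 15.68 and 16.11 in offspring of WT dams (arrays 1 to 6). Arrays of offspring of UCP1-KO dams lay close together, and 5 of the 6 from offspring of WT dams exceeded all of them. The exception was array 5. The means were 15.73 ± 0.15 for UCP1-KO dams and 16.19 ± 0.34 for WT dams (SD, n = 6 each), which differ by -0.47 log2 (95% interval -0.79 to -0.14, adjusted p = 0.206 by limma). This is 72.3% of the signal in offspring of WT dams. Once arrays 8, 10 and 11 were left out, the difference was still -0.47 (adjusted p = 0.578 with 9 arrays), and without arrays 3 to 6, those with the highest negative control medians, it was -0.74 (adjusted p = 0.553).

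**Figure D2:**
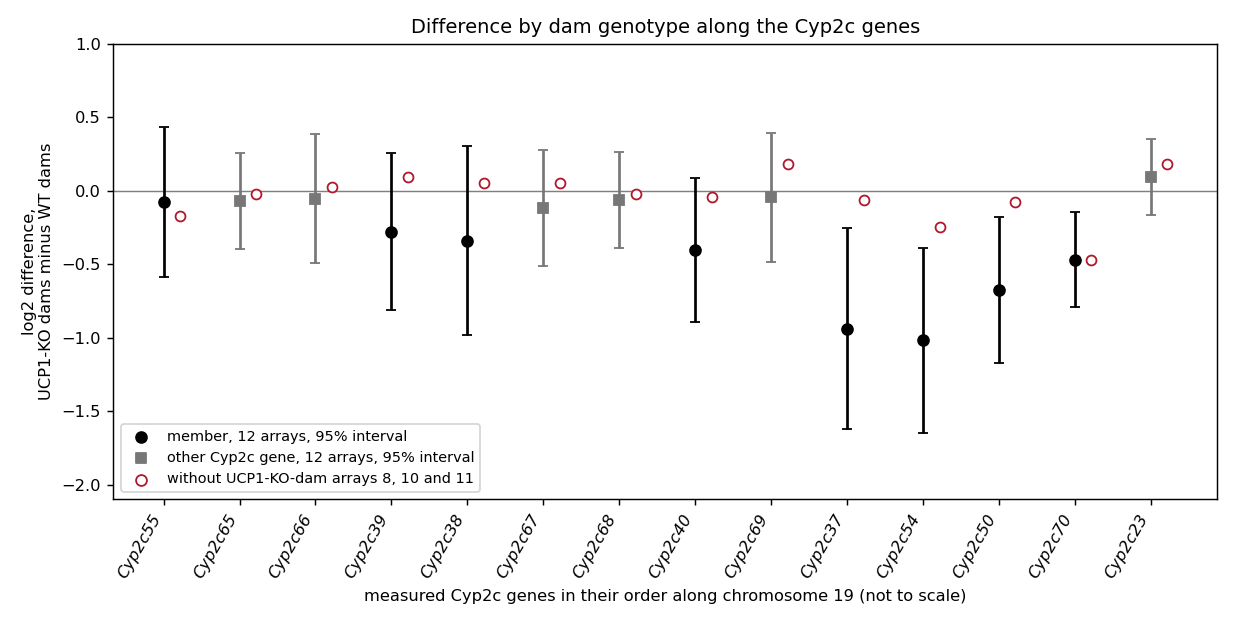
Log2 difference (offspring of UCP1-KO dams minus those of WT dams) of the 14 measured Cyp2c genes in their order along chromosome 19, with 95% intervals; black circles are members, grey squares the other Cyp2c genes, and open red circles the difference without arrays 8, 10 and 11. Cyp2c37, Cyp2c54 and Cyp2c50 move toward 0 without those arrays, whereas Cyp2c70 stays at -0.47.

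Cyp2c40, Cyp2c38 and Cyp2c39 had smaller differences, with intervals that included 0. Cyp2c40 encodes an arachidonic acid hydroxylase. It ranged from 9.41 to 10.74 in offspring of UCP1-KO dams (median 10.28) and from 10.09 to 11.29 in offspring of WT dams (median 10.66). The groups overlapped widely, with arrays 11 and 10 below every array of the WT dams and array 1 highest, and the log2 difference was -0.40 (95% interval -0.89 to 0.09, limma adjusted p = 0.482). It was -0.24 without array 11, -0.04 without arrays 8, 10 and 11 and -0.77 without arrays 3 to 6, so its size depended on which mice were included.

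Cyp2c38 encodes an arachidonic acid epoxygenase, and Cyp2c39 an enzyme that also hydroxylates retinoic acid. Cyp2c38 ranged from 11.98 to 13.43 in offspring of UCP1-KO dams (median 12.81) and from 11.72 to 13.89 in offspring of WT dams (median 13.34). Cyp2c39 ranged from 8.11 to 9.24 in offspring of UCP1-KO dams (median 8.69) and from 8.20 to 9.65 in offspring of WT dams (median 8.88). Both genes thus varied among mice of the same group by more than the groups differed. The log2 differences were -0.34 for Cyp2c38 (95% interval -0.98 to 0.30, limma adjusted p = 0.676) and -0.28 for Cyp2c39 (-0.81 to 0.26, adjusted p = 0.683). Without arrays 8, 10 and 11 they were 0.05 and 0.09. Leaving out single arrays moved Cyp2c38 between -0.62 (without array 6) and -0.18 (without array 10), and Cyp2c39 between -0.42 (without array 6) and -0.13 (without array 1).

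Cyp2c55, which is known also from the intestine and is inducible through CAR and PXR in liver, had the smallest difference of the members. It ranged from 9.58 to 10.27 in offspring of UCP1-KO dams (median 9.94) and from 9.18 to 10.79 in offspring of WT dams (median 10.07). Here arrays 8, 10 and 11 were not low, at 9.79, 10.08 and 10.22. The log2 difference was -0.07 (95% interval -0.58 to 0.43, limma adjusted p = 0.933), and its sign turned to 0.08 without array 6. Without arrays 8, 10 and 11 it was -0.17. Intestinal marker genes read 6.39 to 6.72 in offspring of UCP1-KO dams and 6.43 to 6.83 in offspring of WT dams as array means, and 2 of 6 were above the negative controls.

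**Figure D3:**
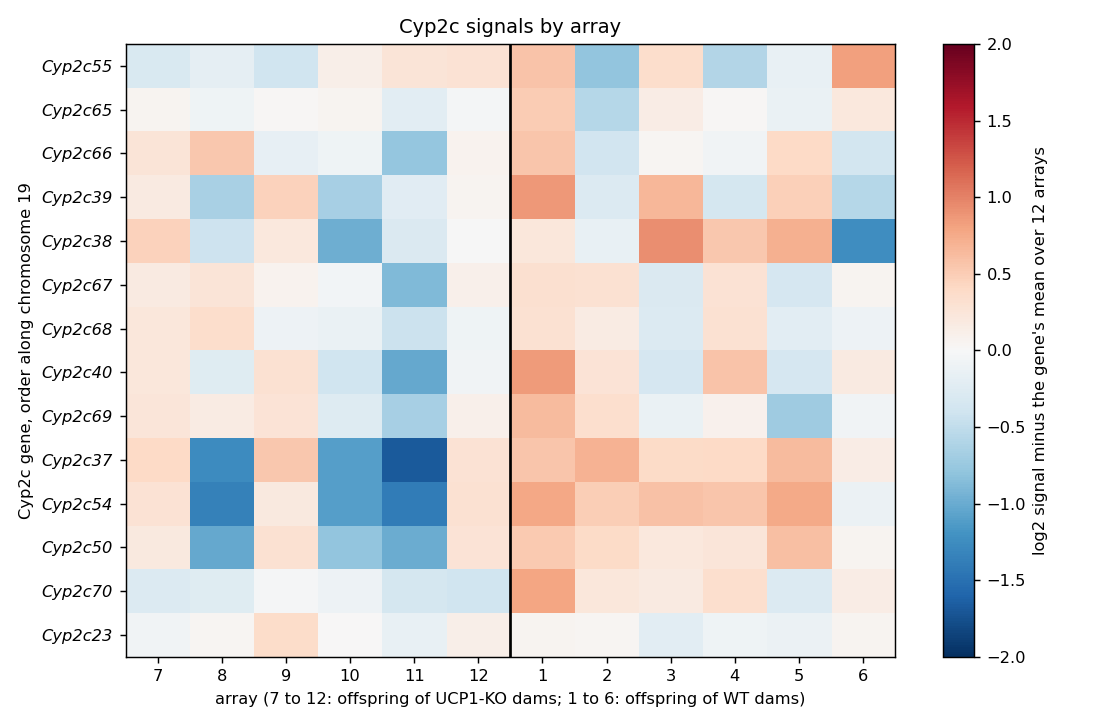
Log2 signal of each measured Cyp2c gene minus its mean over the 12 arrays, with arrays 7 to 12 (offspring of UCP1-KO dams) left of arrays 1 to 6 (offspring of WT dams) and genes in their order along chromosome 19. The blue cells of Cyp2c37, Cyp2c54 and Cyp2c50 on arrays 8, 10 and 11 form a block of adjacent genes, next to the smaller deviations of Cyp2c70 and Cyp2c69.

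In the RefSeq gene order of GRCm38.p6, Cyp2c37, Cyp2c54 and Cyp2c50 follow each other directly, between Cyp2c69 on one side and Cyp2c70 on the other. On arrays 8, 10 and 11 Cyp2c69 read 10.45 to 11.28, within the 10.40 to 11.74 of the other 9 arrays, and Cyp2c70 read 15.61 to 15.86, within 15.56 to 16.75. Neither flanking gene therefore set all 3 arrays below the others, as the trio did. For Cyp2c69, however, arrays 10 and 11 (10.85 and 10.45) lay below every other array except array 5 (10.40). The 6 other measured Cyp2c genes had log2 differences of -0.12 to 0.10, with adjusted p-values from 0.784 to 0.959, and 0 had an unadjusted p under 0.05. Cyp2c23, a fatty acid epoxygenase gene, averaged 17.05 ± 0.18 in offspring of UCP1-KO dams and 16.95 ± 0.11 in offspring of WT dams (SD, n = 6 each). Its log2 difference was 0.10 (95% interval -0.16 to 0.35), and 0.18 without arrays 8, 10 and 11. Cyp2c67, Cyp2c68 and Cyp2c69 had differences of -0.12, -0.06 and -0.04, and Cyp2c65 had -0.07. Without arrays 3 to 6 they were -0.37, -0.26 and -0.51 for the first 3, and without arrays 8, 10 and 11 they were 0.05, -0.02 and 0.18. Cyp2c65 had -0.02 without arrays 8, 10 and 11. Cyp2c66, with means of 5.79 in offspring of UCP1-KO dams and 5.84 in offspring of WT dams, was below the negative controls and gives no level.

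Across arrays the 8 members form 28 pairs. For pairs with Cyp2c37, Cyp2c54 or Cyp2c50 the arrays fall into separate clusters, so correlations are given over the 9 arrays other than 8, 10 and 11, a subset chosen after the data were seen. Over these 9, Cyp2c37 and Cyp2c50 had r = 0.81 (exact permutation p = 0.00809, adjusted p = 0.140 over 28 pairs) and rho = 0.80 (exact permutation p = 0.0138). Cyp2c54 and Cyp2c50 had r = 0.80 (exact permutation p = 0.0100, adjusted p = 0.140) and rho = 0.63 (exact permutation p = 0.0760). Cyp2c37 and Cyp2c54 had r = 0.67 (exact permutation p = 0.0501, adjusted p = 0.234) and rho = 0.47 (exact permutation p = 0.213). Leaving out the 2 arrays farthest from the median gave r = 0.82, 0.76 and 0.48, and 0 of the 28 pairs passed the adjustment at 9 arrays. The trio's common movement among the other mice was therefore not established at this number of arrays. Cyp2c40 had r of only 0.11, 0.03 and 0.04 with Cyp2c37, Cyp2c54 and Cyp2c50 over the same 9.

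Among the 10 pairs without these 3 genes, 2 passed over all 12 arrays. Cyp2c39 and Cyp2c38 had r = 0.75 and rho = 0.76 (permutation test, adjusted p = 0.0347 for r and 0.0361 for rho), and r = 0.76 without the 2 farthest arrays. Cyp2c40 and Cyp2c70 had r = 0.72 and rho = 0.64 (permutation test, adjusted p = 0.0379 for r but 0.105 for rho), and r = 0.49 without the 2 farthest arrays. The rank correlation of this pair therefore did not pass, and the relation rested partly on those arrays. Of 63 further pairs that include a Cyp2c gene outside the list, 5 passed, all among Cyp2c67, Cyp2c68, Cyp2c40 and Cyp2c69. Cyp2c67 and Cyp2c40 had r = 0.85 and rho = 0.83 (permutation test, adjusted p = 0.00693 for r), with r = 0.69 without the 2 farthest arrays. Cyp2c40 and Cyp2c69 had r = 0.83 and rho = 0.83 (permutation test, adjusted p = 0.0112 for r), with r = 0.64 without the 2 farthest. Cyp2c40 therefore varied with Cyp2c67 and Cyp2c69, which lie near it in the gene order. Its promoter window was 80.9% identical to that of Cyp2c69 and 54.2% to that of Cyp2c67. The HNF4 letters lay at -45 to -37 in Cyp2c40, -75 to -67 in Cyp2c69 and -125 to -117 in Cyp2c67. The windows thus cover shifted stretches, and 54.2% does not measure how alike the sequences of Cyp2c40 and Cyp2c67 are. Shared probe signal between these paralogs was not tested.

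**Figure D4:**
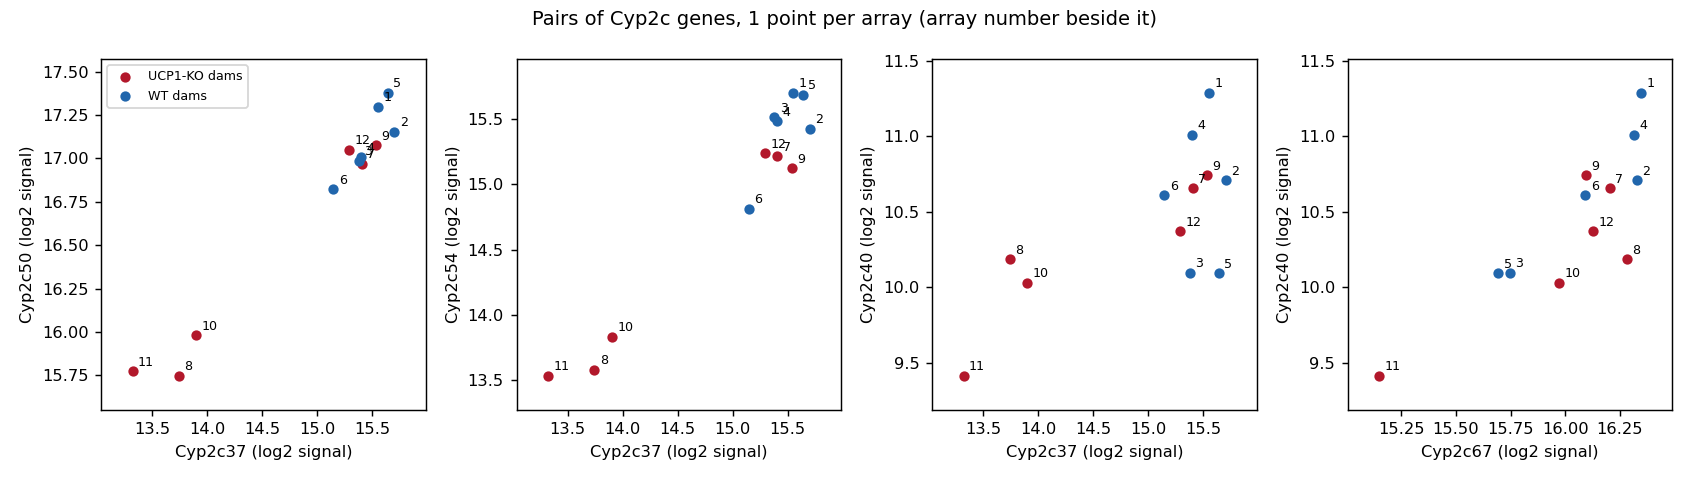
Log2 signals of 4 pairs of Cyp2c genes, 1 point per array with its number, for offspring of UCP1-KO dams (red) and offspring of WT dams (blue). In the pairs of Cyp2c37 with Cyp2c50 and Cyp2c54, arrays 8, 10 and 11 form a cluster of their own, which is absent from the pair of Cyp2c67 with Cyp2c40.

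The genes whose signals followed each member most closely over the 12 arrays are given as a description. They share arrays, so a high r is partly a common array pattern. They were also picked as the highest r of all genes outside the family, which by itself favours high values. For Cyp2c37 these were Dnase1l3, 4931406C07Rik and Mgll, with r of 0.71, 0.09 and 0.03 over the 9 arrays other than 8, 10 and 11. Only Dnase1l3 of these kept a likeness among the other mice. For Cyp2c54 they were Ggcx, Cdk18 and Rae1, with r of 0.79, 0.83 and 0.76 over the 9 arrays. For Cyp2c50 they were Slc10a1, Cdk18 and 4931406C07Rik, with 0.92, 0.83 and 0.39. Slc10a1 encodes the main bile salt uptake transporter of hepatocytes.

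The other members were followed by different genes, again with no test. Cyp2c70 was most like Mapk10, Lig4 and Dppa3 (r = 0.90, 0.88 and 0.87 over 12 arrays), but Mapk10 and Dppa3 were below the negative controls. Cyp2c40 was most like Mbl1, Lsm12 and Cgrrf1 (r = 0.91, 0.90 and 0.89). Cyp2c38 was most like Ap3m1, Acss3 and Alg2 (r = 0.92, 0.87 and 0.83), and Cyp2c39 most like Dennd2d, Slc25a10 and Hes6 (r = 0.94, 0.92 and 0.89). Cyp2c55 was most like Selenbp1, Edil3 and Cul9 (r = 0.89, 0.88 and 0.87), of which Edil3 and Cul9 were below the negative controls. The lists of 3 genes for different members overlapped only among Cyp2c37, Cyp2c54 and Cyp2c50.

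P450 enzymes need electrons and haem, and the measured genes for these showed 0 calls. Por, the gene of cytochrome P450 reductase, had no probe set under that symbol alone and was not among them. Of 5 such genes 4 had differences below 0, with a median of -0.17, and -0.03 without arrays 8, 10 and 11. Cyb5r3, which reduces cytochrome b5, had a log2 difference of -0.20 (limma adjusted p = 0.554), and Cyb5b, an outer mitochondrial cytochrome b5, had -0.17 (adjusted p = 0.660). Without these arrays they were -0.06 for Cyb5r3 and -0.03 for Cyb5b. Alas1, the first enzyme of haem synthesis, had -0.67 (adjusted p = 0.716), and Hmox1, which breaks haem down, 0.28 (adjusted p = 0.669). Both of the last turned sign when arrays 8, 10 and 11, or arrays 3 to 6, were left out.

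Nr1i3, the gene of the receptor CAR, was among the 21 measured nuclear receptors and liver factors, of which 12 lay below 0, 2 had an unadjusted p under 0.05 in the lower direction and 0 in the higher, and 0 were called. Once arrays 8, 10 and 11 were left out, these counts were 8 below 0, 0 lower and 2 higher. Nr1i3 signals were 13.43, 11.85, 13.83, 13.08, 11.38 and 13.83 on arrays 7 to 12 (offspring of UCP1-KO dams) and 12.89, 13.31, 14.92, 14.21, 14.52 and 13.96 on arrays 1 to 6 (offspring of WT dams). Arrays 11 and 8 were lowest, but array 10 was higher than array 1. The log2 difference was -1.07 (limma adjusted p = 0.268), and -0.28 without arrays 8, 10 and 11 and -0.20 without arrays 3 to 6. The pioneer factor genes Foxa2 and Foxa1 had -0.65 and -0.57 (adjusted p = 0.328 and 0.418), and Ahr, the gene of the aryl hydrocarbon receptor, -0.53 (adjusted p = 0.401). In the fit without arrays 8, 10 and 11, they were -0.40 for Foxa2, -0.35 for Foxa1 and -0.18 for Ahr, and Ahr had -0.35 without array 3.

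Known CAR and PXR targets other than Cyp2c did not move in 1 direction, with 9 of 17 below 0 (median -0.06), 1 with an unadjusted p under 0.05 in the lower direction, 2 in the higher and 0 called, and 9 of 17 below 0, 1 lower and 1 higher without arrays 8, 10 and 11. Slco1a4, an organic anion transporter gene, had a log2 difference of 0.66 (limma adjusted p = 0.185), which was 0.24 without arrays 8, 10 and 11. Aldh1a1, a retinaldehyde dehydrogenase gene, had -0.41 (adjusted p = 0.372), and -0.04 without those arrays. Cyp2b9 had -1.66 (adjusted p = 0.410), with standard deviations of 1.38 in offspring of UCP1-KO dams and 2.34 in offspring of WT dams, -0.80 without arrays 3 to 6 and -0.91 without array 5. Gadd45b had 0.44 (adjusted p = 0.213), and 0.25 without arrays 3 to 6, but was below the negative controls.

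Among other enzymes of arachidonic and linoleic acid oxidation, 10 of 17 lay below 0 (median -0.07), with an unadjusted p under 0.05 for 2 lower and 1 higher genes and 0 called. Without arrays 8, 10 and 11 these counts were 8 below 0, 1 lower and 1 higher. Cyp4a10, a fatty acid hydroxylase gene, had a log2 difference of -0.64 (limma adjusted p = 0.287), -0.19 without these arrays and -0.41 without array 10 alone. The lipoxygenase genes Alox5, Alox15 and Alox12 had 0.35, -0.41 and -0.28, all at signals below the negative controls. Of 9 genes of retinoid handling 7 lay below 0 (median -0.31), with an unadjusted p under 0.05 for 2 lower genes and 0 higher ones, and 0 called. In the fit without arrays 8, 10 and 11, 5 lay below 0 and 2 were lower. Cyp26b1, a retinoic acid hydroxylase gene, had -0.83 (adjusted p = 0.359) at signals close to the negative controls, -0.45 without array 1 and -1.99 without arrays 3 to 6. Lrat, which esterifies retinol, had 0.48 (adjusted p = 0.466), and -0.04 without arrays 3 to 6. Rarb, a retinoic acid receptor gene, had -0.31 (adjusted p = 0.541), -0.70 without arrays 8, 10 and 11 and -0.20 without array 1.

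Beside Cyp2c70, 12 genes of bile acid synthesis were measured, of which 7 lay below 0 (median -0.03), an unadjusted p under 0.05 was reached by 3 lower and 1 higher genes, and 0 were called. Once arrays 8, 10 and 11 were left out, these counts were 6 below 0, 2 lower and 1 higher. Hsd3b7, of the sterol nucleus pathway, had a log2 difference of -0.48 (limma adjusted p = 0.191), and the value was -0.44 without arrays 8, 10 and 11. Cyp8b1, which makes cholic acid, had -0.73 (adjusted p = 0.362), and Acox2, of side chain shortening, -0.29 (adjusted p = 0.355), which was -0.18 without arrays 3 to 6. Cyp39a1, an oxysterol hydroxylase gene, had 0.75 (adjusted p = 0.248), and 0.36 without arrays 3 to 6. Cyp8b1 depended on another mouse, with -0.38 without array 9 and -0.97 without arrays 8, 10 and 11.

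Pericentral hepatocyte genes other than Cyp2c had 11 of 12 differences below 0 (median -0.30), with 4 lower and 0 higher genes below an unadjusted p of 0.05 and 0 called. Without arrays 8, 10 and 11, 8 of 12 lay below 0 (median -0.10), with 0 lower and 1 higher. Cyp1a2, a P450 gene expressed around the central vein, read 16.50, 15.11, 16.54, 16.12, 15.17 and 16.61 on arrays 7 to 12 from offspring of UCP1-KO dams and 16.36 to 16.89 on arrays from offspring of WT dams. Arrays 8, 10 and 11 were the lowest, as for the Cyp2c trio. The same held for Slc1a2, Lect2, Gulo and Cyp2e1, and for male-biased genes such as Cyp2d9 and Susd4. The log2 difference of Cyp1a2 was -0.64 (limma adjusted p = 0.261), and -0.10 without these arrays. Slc1a2, a glutamate transporter gene, had -0.44 (adjusted p = 0.274), and -0.09 without them. Lect2, which encodes a secreted protein, and Gulo, of vitamin C synthesis, had -0.72 and -0.59 (adjusted p = 0.152 and 0.153), and -0.39 and -0.28 without them.

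Periportal genes had 10 of 12 differences above 0 (median 0.18), with 3 higher and 0 lower genes below an unadjusted p of 0.05 and 0 called. Once arrays 8, 10 and 11 were left out, 8 of 12 lay above 0 (median 0.08), again with 3 higher and 0 lower. Etnppl, a phosphoethanolamine lyase gene, had 0.84 (limma adjusted p = 0.124) and passed only in the fit without array 7 (adjusted p = 0.0460), among 23 alternatives, and it had 0.49 without arrays 8, 10 and 11. Hsd17b13, which encodes a lipid droplet protein, had 0.45 (adjusted p = 0.129) and groups that did not overlap, and the value was 0.39 without arrays 8, 10 and 11. Pck1, of gluconeogenesis, had 0.58 (adjusted p = 0.292), and 0.26 without arrays 3 to 6. Aldh1b1, an aldehyde dehydrogenase gene, had 0.52 (adjusted p = 0.555), 0.17 without array 11 and -0.34 without all 3 arrays. These list counts come with the median of all probe sets at 0.03 and the shares of all probe sets given above, and the lists were not tested as sets.

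Sex-biased liver genes were set beside the members because several Cyp2c genes differ by sex, although all mice here were male. Of 15 male-biased genes 11 lay below 0 (median -0.23), with 1 lower and 0 higher genes below an unadjusted p of 0.05. Of 18 female-biased genes other than Cyp2c 4 lay below 0 (median 0.16), with 0 lower and 2 higher, and 0 were called in either list. Several of the female-biased genes, such as Hao2, A1bg and Sult2a2, were not above the negative controls, whereas the male-biased genes all were. In the fit without arrays 8, 10 and 11, 5 of 15 male-biased genes lay below 0 (median 0.14, 0 lower and 1 higher) and 6 of 18 female-biased ones did (median 0.09, 0 lower and 3 higher). Susd4 had a log2 difference of -0.89 (limma adjusted p = 0.212), which was -0.20 without arrays 8, 10 and 11, and Selenbp2 had -0.76 (adjusted p = 0.422), and -0.45 without array 6. Cyp2d9, a male-biased P450 gene, had -0.52 (adjusted p = 0.504), which was -0.24 without array 11 and 0.27 without the 3 arrays, and Mup20, of the major urinary proteins, had 0.21 (adjusted p = 0.475). On the female-biased side Cyp3a16 and Cyp3a44 had 0.46 and 0.37 (adjusted p = 0.191 and 0.329), with 0.18 for Cyp3a44 without arrays 3 to 6. Acot3 had 0.71 (adjusted p = 0.445), 0.25 without array 9 and 1.20 without arrays 8, 10 and 11.

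Other P450 families are set beside the Cyp2c values. Of 33 Cyp2 genes outside Cyp2c, 22 lay below 0 (median -0.16) and 2 were lower at an unadjusted p under 0.05. Unlike the 8 members, several of these Cyp2 genes, such as Cyp2b19, Cyp2j8 and Cyp2s1, were not above the negative controls. Most Cyp2 genes at that low signal lay above 0, whereas most Cyp2 genes above the controls lay below 0, as the members did. Of 9 Cyp3a genes 3 lay below 0 (median 0.07) and 2 were higher at that threshold. These were Cyp3a16 and Cyp3a44, the same 2 genes that were higher in the female-biased list. Of 20 Cyp4 genes, which encode fatty acid hydroxylases, 13 lay below 0 (median -0.13) and 3 were lower. In each of the 3 families 0 genes were called. Arrays 8, 10 and 11 were also the lowest for several P450 genes outside Cyp2c, such as Cyp2e1, Cyp2d10, Cyp2d12, Cyp2d13 and Cyp4a12a. They were not the lowest for Cyp2j5 or Cyp3a11, among others. This pattern was therefore not particular to the Cyp2c trio, and its share over all probe sets was not counted. Without arrays 8, 10 and 11, the counts below 0 were 13 of 33 Cyp2 genes, 4 of 9 Cyp3a genes and 11 of 20 Cyp4 genes, with 1 lower and 0 higher, 0 lower and 2 higher, and 2 lower and 1 higher at an unadjusted p under 0.05.

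**Figure D5:**
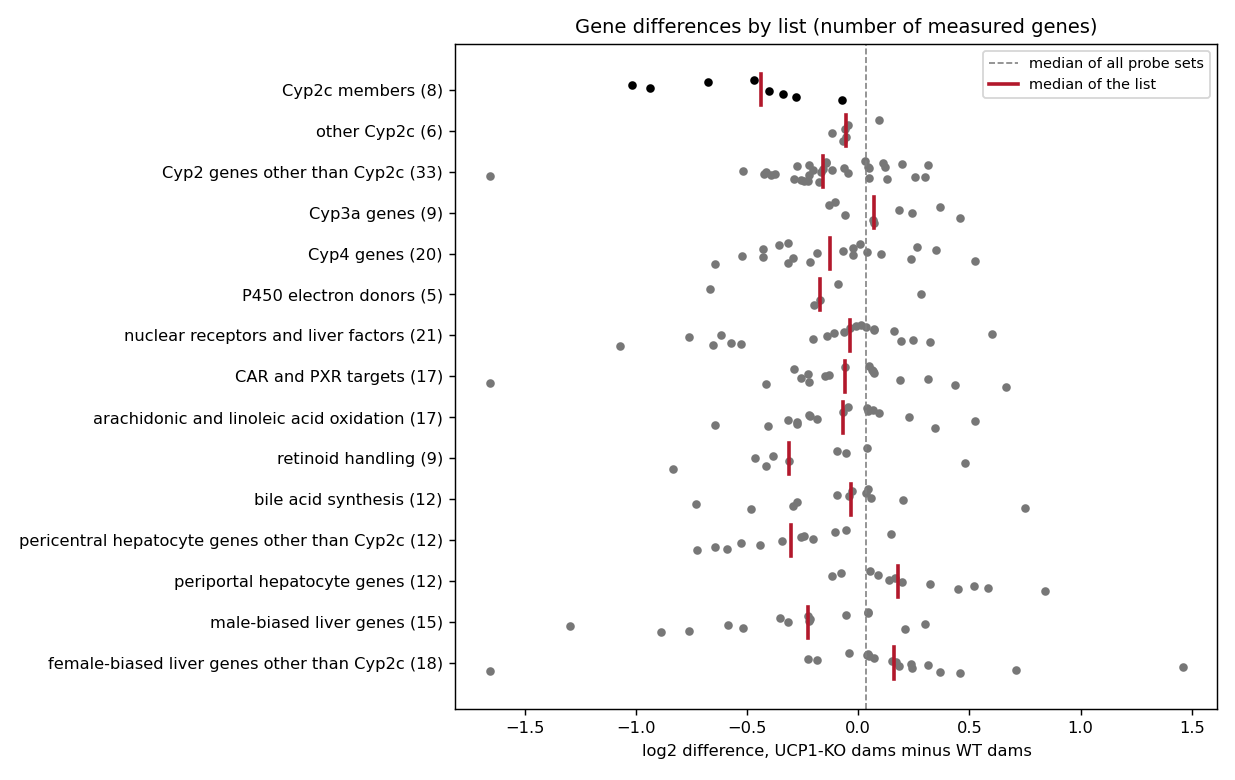
Log2 differences (offspring of UCP1-KO dams minus those of WT dams) of single genes, 1 row per list with the number of measured genes in brackets; the red bar is the list's median and the dashed line the median of all probe sets. The 8 Cyp2c members lie between -1.02 and -0.07, and the 6 other Cyp2c genes lie around 0.

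Marker genes of other cells a liver sample can hold were read in the same way. Kupffer cell genes had array means of 9.20 to 9.95 in offspring of UCP1-KO dams and 9.08 to 10.6 in offspring of WT dams, with 6 of 6 above the negative controls. Sinusoidal endothelial genes, also 6 of 6, read 10.80 to 11.08 in offspring of UCP1-KO dams (10.80 to 10.83 on arrays 8, 10 and 11) and 10.70 to 11.04 in offspring of WT dams. Stellate cell genes, 5 of 6, read 9.10 to 9.42 in offspring of UCP1-KO dams and 8.84 to 9.44 in offspring of WT dams. Arrays 8, 10 and 11 lay within the range of offspring of WT dams for endothelial and stellate genes. The 2 measured erythroid genes averaged 10.06 to 10.42 on arrays 8, 10 and 11, 9.86 to 10.42 over all offspring of UCP1-KO dams and 9.75 to 10.00 in offspring of WT dams, so the 3 arrays were above every array of the WT dams. Of the cholangiocyte, lymphocyte, pancreas and adipocyte genes 1 of 5 in each list was above the negative controls, and of the kidney genes 0 of 5. Their array means were 5.79 to 6.22 in offspring of UCP1-KO dams and 5.85 to 6.14 in offspring of WT dams for cholangiocytes. For lymphocytes they were 6.05 to 6.38 in offspring of UCP1-KO dams and 5.91 to 6.42 in offspring of WT dams. For pancreas they were 5.15 to 5.52 in offspring of UCP1-KO dams and 4.94 to 5.37 in offspring of WT dams, for adipocytes 4.93 to 5.38 (UCP1-KO dams) and 4.87 to 5.26 (WT dams), and for kidney 4.39 to 4.67 (UCP1-KO dams) and 4.18 to 4.52 (WT dams). In all marker lists 0 genes were called, but an unadjusted p under 0.05 was found for 2 of 6 endothelial, 1 of 2 erythroid, 2 of 5 adipocyte, 1 of 5 pancreas and 1 of 5 kidney genes. Their part in the Cyp2c values was not tested.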

How the data were processed

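Liver RNA of 12 mice was hybridised to 1 gene-level array each. The deposited values are log2 signals, made by the authors; the submitters' processing notes name RMA and the Transcriptome Analysis Console, without versions. RMA corrects background, makes the arrays alike and summarises probes, so differences of dim probe sets are compressed. Of the deposited rows, 6640 control rows were left out of the fit, and 22206 probe sets were kept (19572 with 1 symbol, 2634 unnamed).

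Each probe set was fitted by limma 3.58.1 in R 4.3.3 with dam genotype as the only term (lmFit and eBayes, two-sided, Benjamini-Hochberg adjustment over 22206 probe sets, threshold 0.05). The same step was tested on simulated data. Single values per array were compared by exact permutation over 6 against 6, whose smallest p is 0.00216. Correlations used 100000 resamples, or all orders at 9 arrays. Members, lists and tests were chosen with earlier results of these data known. Named were all measured Cyp2c genes, the genes of smallest p in each list (up to 4) and the 3 genes most like each member. The number of arrays limits the precision. Promoter windows were matched to RefSeq by symbol.

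Alternatives were other scalings, filters, variance models, the negative control median as a covariate and arrays left out.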

Additional observations from a re-analysis of the deposited data

Results flagged for a closer look

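Of 30 groups of 6 arrays tested for a single far value, 2 held one, where chance gives about 5%. Cyp2c67 had a lowest value of 15.15 among offspring of UCP1-KO dams, on array 11, with the nearest other array at 15.97. Cyp2c54 had a lowest value of 14.81 among offspring of WT dams, on array 6, with the nearest other array at 15.43. The gap took up 0.727 of the group's range for Cyp2c67 and 0.689 for Cyp2c54, above Dixon's 95% critical value for 6 samples.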

How the results depend on the processing

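0 members were called in the 23 alternatives, and the lowest adjusted p of a member was 0.0982 (limma, Cyp2c54 without array 7). The 8 calls over all probe sets became 22 with a variance trend and robust estimation, 32 without the dimmer 50% of probe sets, 2 with the negative control median as a covariate, and 0 with the unequal-variance test (2617 with an unadjusted p under 0.05), 0 without UCP1-KO-dam arrays 8, 10 and 11 (1884) and 0 without WT-dam arrays 3 to 6 (1561). They ran from 1 (without array 8) to 112 (without array 2) when single arrays were left out. Passing pairs of members, 6 over 12 arrays, became 11 with median centring and 0 without arrays 8, 10 and 11, and 3 to 11 without single arrays. The cause of these shifts was not tested. Where arrays or probe sets were left out, their smaller number and the choice of those left out cannot be told apart.

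Signs turned for Cyp2c55 (0.0723 without arrays 3 to 6, -0.240 to 0.0832 without single arrays), and without single arrays for Cyp2c65 (-0.19 to 0.0268), Cyp2c66 (-0.17 to 0.0972), Cyp2c67 (-0.19 to 0.0487), Cyp2c68 (-0.13 to 0.0212) and Cyp2c69 (-0.19 to 0.0838). In the fit without arrays 8, 10 and 11, the differences were 0.0275 for Cyp2c66, 0.0914 for Cyp2c39, 0.0514 for Cyp2c38, 0.0548 for Cyp2c67, 0.18 for Cyp2c69, -0.13 for Hmox1, 0.31 for Alas1, -0.34 for Aldh1b1 and 0.27 for Cyp2d9. Without arrays 3 to 6 they were -0.29 for Hmox1, 0.0702 for Alas1 and -0.0419 for Lrat. Cyp2c37, Cyp2c54, Cyp2c50, Cyp2c70 and Cyp2c40 kept their direction in all 23. Signals near the negative controls give only a bound on a level. No paired analysis was made because the labels name no litter, batch or pairing.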
